A study of Mus musculus with 2 samples.

Results

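A small set of open chromatin sites of the mouse adrenal gland lay almost wholly inside repetitive sequence, and most of the strongest shared a DNA word that matches the consensus of the factor CTCF. DNase I hypersensitive sites (DHSs) are short stretches that the enzyme DNase I cuts often in nuclei, and they mark open chromatin. The repeat DHSs described here were selected from the deposited peak lists by 4 criteria. A site had to be an autosomal DHS of the longer list of replicate 1, overlap a DHS of the longer list of replicate 2 by at least 1 bp, and lie over 1 kb from every GENCODE M21 protein-coding start. At least 80% of its bases had to be in lower case, which marks repeat-masked sequence, in the RefSeq copy of the GRCm38 (mm10) genome. Of 54867 shared distal autosomal DHSs, 483 (0.880%) met these criteria. Of autosomal bases, 33.5% are in lower case, but a share of bases cannot be set against a share of DHSs past the 80% criterion. The shared distal DHSs with no lower-case base, called unmasked DHSs below, numbered 30935 (56.4%) and were used for comparison. Presence in both libraries and the lower-case share chose the members, so neither is a finding.

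The tissue was adrenal gland from 2 male mice of the strain B6CASTF1/J, 25 days old, and each animal gave 1 DNase-seq library. These are F1 hybrids of the B6 and CAST strains, and sequence of the CAST allele is not represented in the reference used here. The libraries are replicate 1 and replicate 2 of a single group, with no treatment, mutant or second tissue. The labels number the animals separately but give both the same donor code. With 1 group of 2 libraries no test between conditions can be made. Values are therefore given for each library, and shares carry 95% Wilson intervals that cover counting error only, since regions are not independent replicates.

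Most repetitive DNA in mammals descends from transposable elements, which copied themselves into many places of the genome. The most abundant in mouse include the short B1 and B2 elements, which derive from small RNA genes and are transcribed by RNA polymerase III. Mouse B2 elements are known to carry a sequence that the factor CTCF, which organises chromatin loops and domain borders, can bind. Other repeats are tandem arrays, in which a unit follows itself many times.

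The word that recurred among the strongest members was a match to the CTCF consensus CCANNAGNNGGC. The sites of the 6 highest members with such a match are shown because they share more than the fixed letters. Each is 30 bases long, on the strand of the match, with the match in capitals.
Slc25a25 (chr2:32487287-32487316, minus strand): cctcagaggCCAGAAGAGGGCggaggctca
Tmem50a (chr4:134913643-134913672, minus strand): atccgcaggCCAGAAGAGGGCgccagatcc
Ccdc65 (chr15:98710617-98710646, minus strand): gtctgccggCCAGAAGGGGGCgccagatct
Ano6 (chr15:95773659-95773688, plus strand): tcatggcggCCAGAAGAGGGCaccagattc
Lcn5 (chr2:25663704-25663733, plus strand): ccaaggaggCCAGAAGAGGGCattggatcc
C3 (chr17:57219332-57219361, plus strand): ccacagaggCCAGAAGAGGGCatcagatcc

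Each site is named by the protein-coding gene with the start nearest to it, which says nothing of a target. In 5 of these 6 members the 12 letters of the match were ccagaagagggc, and the member near Ccdc65 had ccagaagggggc. Over the whole length of the DHS, 138 members held a match, in 17 distinct spellings, and 91 of the 138 held ccagaagagggc. The next spellings were rare, with ccagaagggggc in 9 members, ccagcagagggc in 8 and ccacaagagggc in 6.

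In the central 150 bp, on either strand, 144 repeat DHSs (29.8%, 95% interval 25.9 to 34.0) held a CTCF match. The share was 11.3% (3486 of 30935) in unmasked DHSs and 12.5% in all 54867 shared distal DHSs. Windows of the same length were placed 2 kb to each side of the members, and 262 of 966 were at least 80% lower-case and free of any DHS. Of these, 2.67% (7 of 262) held the match. The windows were not matched to the members by repeat family, so they do not compare open with closed copies of the same repeat. The match was concentrated in the strong members. It was present in 32 of the 50 members with the highest mean height of both libraries and in 1 of the 50 with the lowest. Among DHSs with a mean height of 1 to 2, 50% of repeat DHSs (52 of 104) and 9.54% of unmasked DHSs held it. With a mean height under 0.5 the shares were 6.74% (13 of 193) in repeat DHSs and 3.13% in unmasked DHSs.

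**Figure D1:**
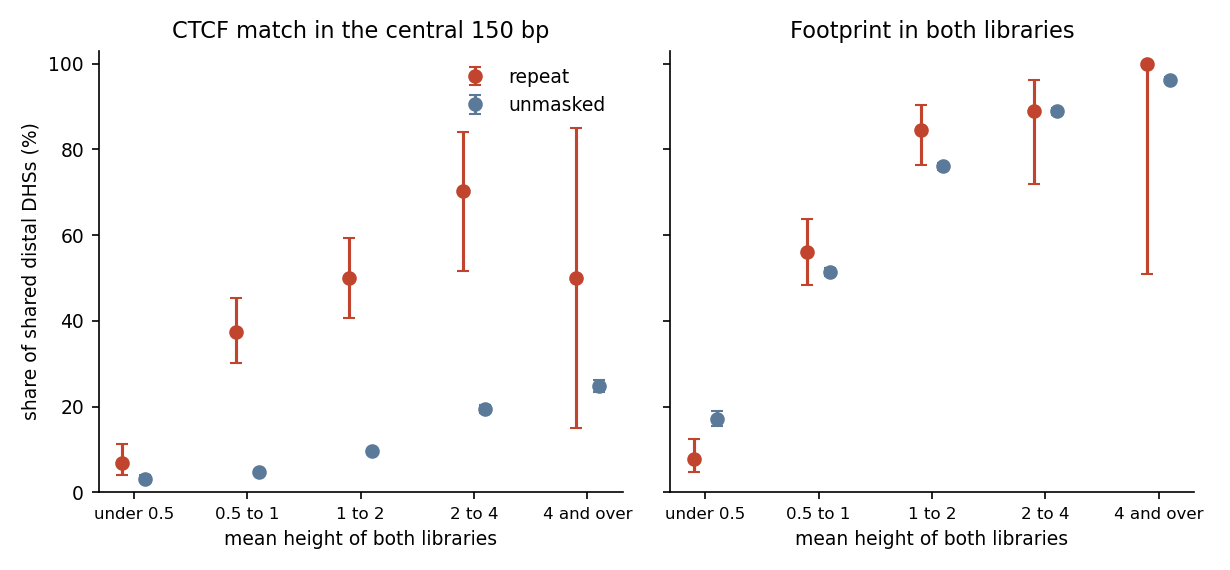
Share of shared distal DHSs (%, y axis) with a CTCF match in the central 150 bp (left) and with a footprint in both libraries (right), by the mean height of both libraries (x axis), for repeat DHSs (red) and unmasked DHSs (blue); bars are 95% Wilson intervals. The CTCF share of repeat DHSs lies above that of unmasked DHSs in each height class. The footprint share of repeat DHSs is the lower one under 0.5. It is the higher one between 0.5 and 1 (56.1% against 51.4%) and between 1 and 2 (84.6% against 76.03%). Between 2 and 4 both are 88.9%, and only 4 repeat DHSs fall in the highest class.

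Where the match was present, the DHS was centred on it about as often as in unmasked DHSs. The match lay within 25 bp of the centre in 83.3% of matched repeat DHSs (115 of 138) and in 81.8% of matched unmasked DHSs. A footprint is a short stretch inside a DHS that is cut less than its surroundings, as happens under a bound protein, and the authors' lists give footprints at a single FDR threshold. In replicate 1 a footprint touched the match in 86.2% of matched repeat DHSs and 89.3% of matched unmasked DHSs. In replicate 2 the shares were 55.8% (interval 47.5 to 63.8) in repeat DHSs and 69.8% (68.3 to 71.3) in unmasked DHSs. Matched repeat DHSs were lower than matched unmasked DHSs, with median heights of 1.19 against 3.20 in replicate 1 and 0.826 against 1.45 in replicate 2.

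Open copies of the word were a small part of all copies in masked sequence. Distal autosomal sequence held 69605 CTCF matches written wholly in lower case, and 939 of them (1.35%) lay in a shared distal DHS. Of the 60564 matches with at least 1 capital letter, 10.3% did. Most lower-case matches, 47106 or 67.7%, were spelled ccagaagagggc, and 0.968% of those (456) lay in a shared distal DHS. Only 202 matches with at least 1 capital letter had that spelling, and 4.46% of them (9, interval 2.36 to 8.25) lay in one. Other spellings were open at higher and lower rates. Of 825 lower-case matches spelled ccagcagagggc 22.9% lay in a shared distal DHS, and of 542 spelled ccacaagagggc 7.56% did, while of 1429 spelled ccagcagtgggc 0.490% (7) did. The 80% criterion left most open lower-case matches out, since only 138 of the 939 lay in repeat DHSs. A further 255 lay in DHSs that were 50 to under 80% lower-case, 316 in DHSs of 20 to under 50% and 230 in DHSs under 20%.

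The members fell into families of related sequence. An all-against-all alignment joined members that shared at least 50 aligned bases, which gave 20 families with 383 members and left 100 members alone. Family 1 held 186 members and 132 of the 144 CTCF-matched ones. Family 2 held 86 members, family 3 held 24, and families 4 and 5 held 11 each. Of all members, 34 resembled the B1_Mus2 element that RefSeq annotates on chromosome 7, with a median of 89.5 aligned bp at 81.3% identity. Of these 34, 30 were in family 1, where they made up 16.1% of the 186 members. The members were not matched to a B2 consensus, and 0 members of families 2 and 3 resembled B1_Mus2. The families are therefore called by their numbers.

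The strongest members of families 1, 2 and 3 are shown whole, on the plus strand, as examples of the 3 largest families. Capitals mark the CTCF match of the family 1 member, on the minus strand, and families 2 and 3 have none marked.
Family 1, near Slc25a25 (chr2:32487201-32487360): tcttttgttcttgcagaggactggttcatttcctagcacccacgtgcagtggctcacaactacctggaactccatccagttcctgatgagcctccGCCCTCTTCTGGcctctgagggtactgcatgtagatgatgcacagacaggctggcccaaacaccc
Family 2, nearest to Dad1 (chr14:53935761-53935940): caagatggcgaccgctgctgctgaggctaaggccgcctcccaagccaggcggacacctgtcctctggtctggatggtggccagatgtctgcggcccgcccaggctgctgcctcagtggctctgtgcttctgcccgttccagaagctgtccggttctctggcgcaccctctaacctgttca
Family 3, near Gbp6 (chr5:105306221-105306380): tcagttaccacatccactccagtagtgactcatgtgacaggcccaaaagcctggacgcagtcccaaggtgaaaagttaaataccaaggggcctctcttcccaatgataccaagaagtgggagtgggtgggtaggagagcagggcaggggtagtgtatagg

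Repeat DHSs as a whole were low. Height here means the peak signal in the deposited lists, and all heights of a library were whole multiples of a common step. The median height of repeat DHSs was 0.567 in replicate 1 (range 0.0667 to 9.07), against 1.38 for unmasked DHSs. In replicate 2 it was 0.622 (range 0.0888 to 22.8), against 1.12 for unmasked DHSs. The ratio of these medians was 0.410 in replicate 1 and 0.556 in replicate 2. The repeat medians correspond to 68 and 70 steps, and those of unmasked DHSs to 166 and 126 steps. Of the 483 members, 193 had a mean height under 0.5.

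Among the 3 largest families, the heights of family 1 were the nearest to those of unmasked DHSs. Family 1 had median heights of 1.16 in replicate 1 and 0.862 in replicate 2. Family 2 had 0.250 and 0.391, and family 3 had 0.229 and 0.3997. The 100 members outside any family had 0.462 and 0.600. Among the 50 highest members 37 were of family 1 and 3 of families 2 or 3, while 32 of the 50 lowest were of families 2 or 3. Within family 1, the 132 members with a CTCF match had medians of 1.25 and 0.839, and the 54 without one had 0.842 and 0.897. The matched members thus had the higher median in replicate 1 and the lower one in replicate 2. Matched and unmatched members were not paired by repeat type, and 30 of the 186 members of family 1 resembled B1_Mus2. Without family 1, the remaining 297 members had medians of 0.333 and 0.462.

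**Figure D2:**
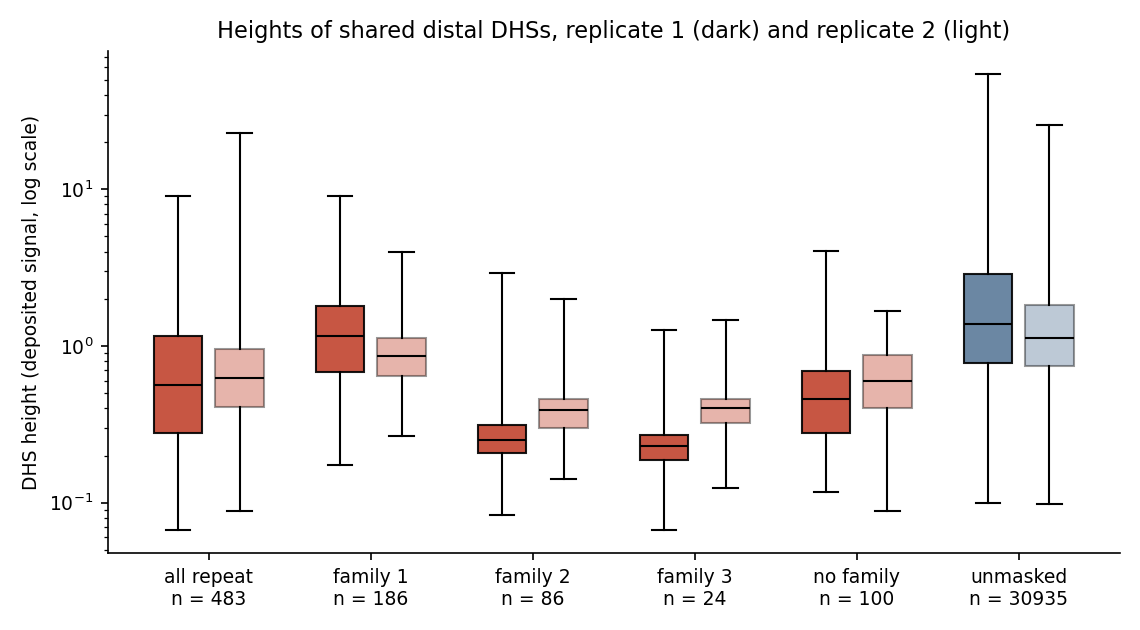
Height of shared distal DHSs (deposited signal, log scale, y axis) in replicate 1 (dark) and replicate 2 (light) for all repeat DHSs, families 1 to 3, repeat DHSs of no family (all red) and unmasked DHSs (blue). Boxes span the quartiles with the median as a line, and whiskers reach the lowest and highest DHS; the median of family 1 is 1.16 and 0.862, and those of families 2 and 3 are at or below 0.3997 in both libraries.

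The stricter, shorter peak list held few repeat DHSs. Of 483 members, 107 (22.2%, interval 18.7 to 26.1) overlapped the shorter list of both libraries, where 52.4% of all shared distal DHSs and 52.4% of unmasked DHSs did. Family 1 reached 33.3% (62 of 186), family 2 6.98% (6 of 86) and family 3 8.33% (2 of 24). A footprint was present in both libraries in 218 repeat DHSs (45.1%, interval 40.8 to 49.6), beside 70.1% of all shared distal DHSs and 69.7% of unmasked DHSs. The share was 72.6% in family 1 (135 of 186), 10.5% in family 2 (9 of 86) and 12.5% in family 3 (3 of 24). The footprint shares also depended on mean height. Between 0.5 and 1 the footprint share was 56.1% in repeat DHSs and 51.4% in unmasked DHSs, and between 1 and 2 it was 84.6% (76.5 to 90.3) in repeat DHSs and 76.03% in unmasked DHSs. Under 0.5, which holds 193 of the 483 members, it was 7.77% in repeat DHSs and 17.1% in unmasked DHSs. The share in both shorter lists was 2.07% in repeat and 1.28% in unmasked DHSs under 0.5, and 13.5% and 15.6% between 0.5 and 1. Between 1 and 2 that share was 55.8% in repeat and 57.5% in unmasked DHSs. Between 2 and 4 it was 74.1% (20 of 27) in repeat DHSs and 91.0% in unmasked DHSs. At 4 and over it was 100% of only 4 repeat DHSs and 99.6% of unmasked DHSs.

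Heights were lower the more of a DHS was in lower case, from 20% lower-case bases upwards. DHSs of 20 to under 50% numbered 6084, with median heights of 1.22 in replicate 1 and 1.00 in replicate 2, and 15.5% held a CTCF match. DHSs of 50 to under 80% lower-case bases numbered 1286, with median heights of 0.917 and 0.791, and 23.6% held a CTCF match. The 340 members of 80 to under 100% had medians of 0.662 and 0.648, and 31.2% held a match. The 143 members wholly in lower case had medians of 0.383 and 0.524, and 26.6% held a match. Of the 5 DHSs just inside the criterion, all at 80%, heights spanned 0.250 to 3.03 in replicate 1 and 0.426 to 1.20 in replicate 2. The 5 just outside, at 79.5 to 79.8%, spanned 0.317 to 2.07 and 0.373 to 2.02, so the criterion divides a continuous range.

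Over members of all heights, the balance between the libraries differed from that of unmasked DHSs. Of the repeat DHSs, 43.7% (211 of 483) were higher in replicate 1, while 65.6% of unmasked DHSs were. The median log2 ratio of height in replicate 1 over replicate 2 was -0.16 in repeat DHSs and 0.29 in unmasked DHSs. By mean height it was -0.58 in repeat and -0.27 in unmasked DHSs under 0.5, and -0.07 and -0.04 between 0.5 and 1. From 1 to 4 the order turned, with 0.44 in repeat and 0.31 in unmasked DHSs between 1 and 2, and 1.14 and 0.74 between 2 and 4. At 4 and over the ratio was 0.65 in only 4 repeat DHSs and 0.90 in unmasked DHSs. At least 2-fold higher in replicate 1 were 54 repeat DHSs (11.2%), beside 19% of all shared distal DHSs. At least 2-fold higher in replicate 2 were 47 (9.73%, interval 7.40 to 12.7), beside 2.91% of all shared distal DHSs and 3.02% of unmasked DHSs. The members with a CTCF match leaned to replicate 1. Of the 54 higher in replicate 1, 41 had a match. Over all 144 matched members the median log2 ratio was 0.63, and over matched unmasked DHSs it was 1.04. Of the 47 higher in replicate 2, 46 had no match, and 29 had a mean height under 0.5.

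**Figure D3:**
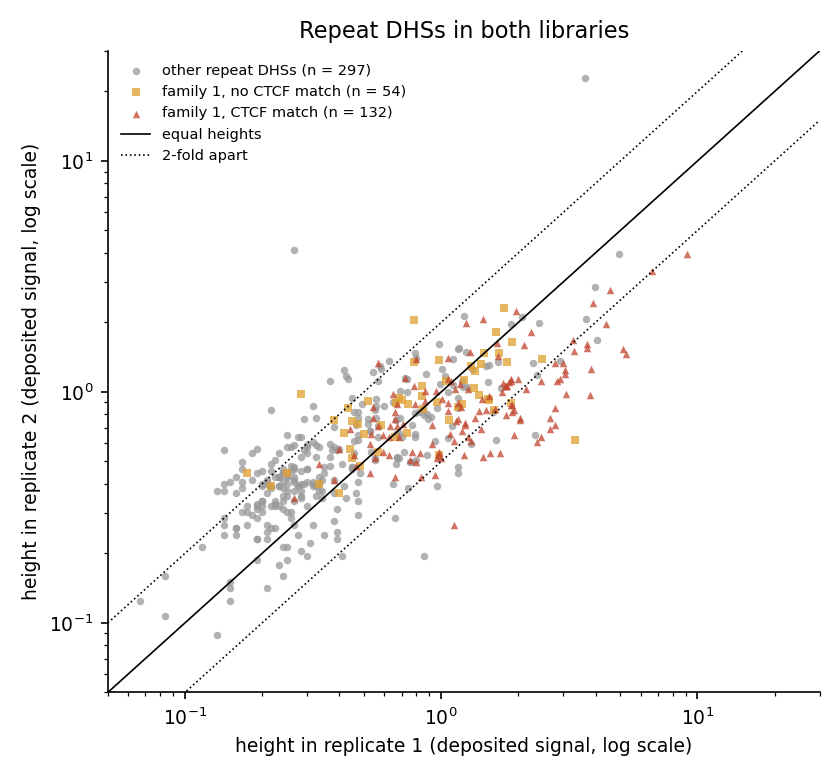
Height in replicate 1 (x axis) against height in replicate 2 (y axis), both deposited signal on log scales, for the 483 repeat DHSs, with family 1 members split by a CTCF match in the central 150 bp. The solid line marks equal heights and dotted lines a 2-fold difference; CTCF-matched family 1 members lie mostly below the solid line, weak other members lie mostly above it, and the uppermost point is the member nearest to Kcnh5.

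Taken over all heights, repetitive DHSs of one library were seldom found in the other. Of all distal autosomal DHSs of replicate 1 that were at least 80% lower-case, 20.7% (483 of 2334) overlapped a DHS of replicate 2, while 57.3% of its unmasked distal DHSs did. In the other direction the shares were 6.88% (500 of 7264) of repeat DHSs and 51.0% of unmasked DHSs of replicate 2. Replicate 2 thus had 7264 such DHSs and replicate 1 had 2334. The gap was also present among DHSs of like height. Among DHSs with a height of 1 to 2 in their own library, 57.1% of repeat and 76.2% of unmasked DHSs of replicate 1 were found in replicate 2. In replicate 2, 77.8% of repeat and 88.5% of unmasked DHSs of that height were found in replicate 1. Between 0.5 and 1 the shares for replicate 2 were 17.8% of repeat and 48.7% of unmasked DHSs. Between 2 and 4 most repeat DHSs were found again, 80.4% (37 of 46) from replicate 1 and 92.9% (13 of 14) from replicate 2. The shares of unmasked DHSs there were 93.9% and 97.8%. Most repeat DHSs were weak, with 1687 of 2334 in replicate 1 and 6009 of 7264 in replicate 2 under 0.5.

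**Figure D4:**
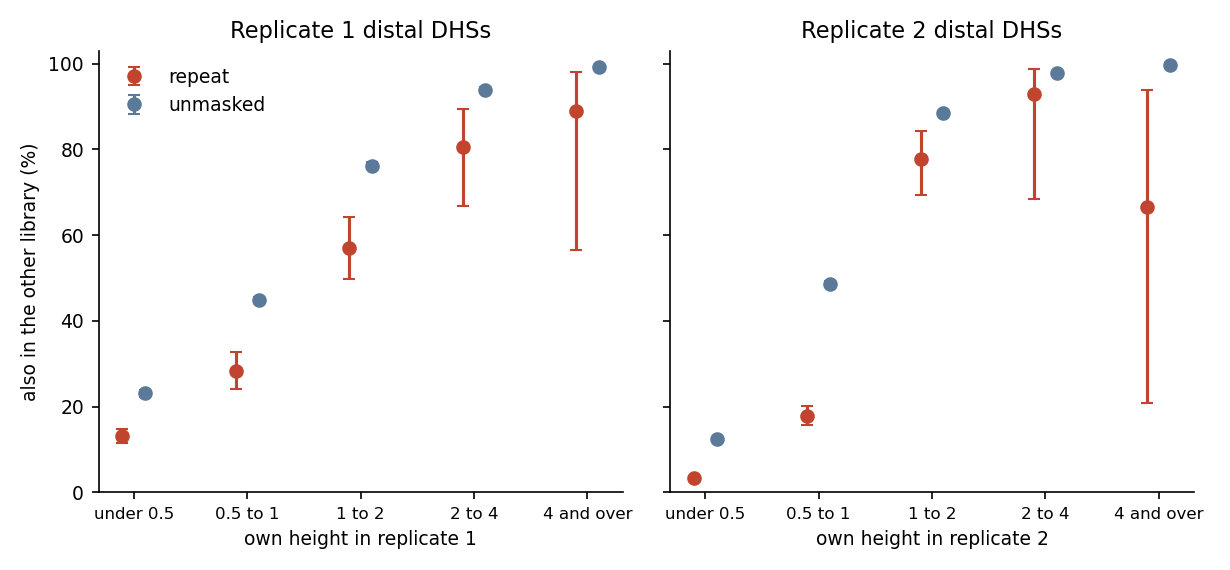
Share of distal autosomal DHSs of replicate 1 (left) and replicate 2 (right) that overlap a DHS of the other library (%, y axis), by height in their own library (x axis), for DHSs at least 80% lower-case (red) and unmasked DHSs (blue), with 95% Wilson intervals. Repeat DHSs lie below unmasked DHSs in every height class, and the classes of 4 and over hold only 9 (replicate 1) and 3 (replicate 2) repeat DHSs.

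Whether a sequencing read can be placed in a repeat depends on copies of the same bases elsewhere. The middle 36 bases of the DHS occurred once in the reference for 367 repeat DHSs (75.98%) and for 99.4% of unmasked DHSs. The middle 76 bases occurred once for 98.1% of repeat DHSs and 99.9% of unmasked DHSs. In 17 members the middle 36 bases occurred over 100 times, which was seen in 0 of the 30935 unmasked DHSs, a count that allows a share of up to 0.0124%. In 13 members short tandem repeats with units of 1 to 6 bp made up at least 50% of the bases. Members with unique middle 36 bases had median heights of 0.658 and 0.648, and the 116 others had 0.421 and 0.524. The sources used here give neither the read length nor the handling of reads with several placements, and their part in these heights was not tested.

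Some members lay in sequence that repeats itself nearby. Whether such units form a separate array or part of an interspersed element was not tested. In 13 members the 600 bp around the centre matched itself at a shift of 7 to 250 bp in at least 70% of positions, as a tandem array does. The strongest family 2 member and its neighbour (chr14:53936021-53936220) were of this kind, with shifts of 214 and 215 bp, inside a lower-case run of 6918 bp. Their heights were 2.40 and 1.99 in replicates 1 and 2 for the first, and 2.92 and 1.36 for the neighbour.

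The highest member of all also came from repeated units. It lay in intergenic sequence at chr12:74803861-74804020, 373392 bp from the start of Kcnh5, which encodes a voltage-gated potassium channel. Its height was 3.64 in replicate 1 and 22.8 in replicate 2, which is 6.26-fold higher in replicate 2. Its middle 36 bases occurred 23 times in the reference, and the 600 bp around it was most like itself at a shift of 58 bp, with 48.9% of bases equal. Copies missing from the reference are not counted. Whether reads from other copies make up part of this height, or of its difference between the libraries, was not tested. The sequence is shown because its units can be read in it; no bases are capitalised.
Highest member, nearest to Kcnh5, plus strand: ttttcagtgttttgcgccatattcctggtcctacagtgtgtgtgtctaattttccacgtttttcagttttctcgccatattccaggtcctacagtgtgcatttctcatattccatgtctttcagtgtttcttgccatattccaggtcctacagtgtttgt

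This member belonged to family 14 with 2 others, and all 3 were at least 2-fold higher in replicate 2. The member nearest to Mdga2, in an intron of that gene, had heights of 0.267 in replicate 1 and 4.11 in replicate 2. The member nearest to Gm11168 had 0.417 and 1.24. The 2 were named after their values were seen.

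The next members by mean height were mostly of family 1 with unique middle bases. The DHS nearest to Slc25a25, which encodes a mitochondrial carrier of ATP-Mg and phosphate, had heights of 9.07 in replicate 1 and 3.96 in replicate 2, and lay 35835 bp from its start. An intronic DHS of Tmem50a had 6.63 and 3.34 at 1375 bp from the start. The DHS near H2-K1, which encodes a class I major histocompatibility protein, had 4.92 and 3.95. Its middle 36 bases occurred 2551 times in the reference.

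An intronic DHS of Ccdc65, which encodes a protein of motile cilia, had heights of 4.54 and 2.76 in replicates 1 and 2. The DHS nearest to Ano6, the gene of a membrane phospholipid scramblase, had 5.27 and 1.47. The DHS nearest to Lcn5, a lipocalin gene, had 5.13 and 1.53. An intronic DHS of C3, the central complement component, had 4.38 and 1.97.

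The remaining members among the 10 highest were nearest to Olfr330, an olfactory receptor gene, with 3.97 and 2.85, and to Phxr2, with 3.91 and 2.42 in an intron of Poc1b. Of the 10 highest, 7 were of family 1 with a CTCF match, 8 had unique middle 36 bases, and 9 were higher in replicate 1; the exception was the member nearest to Kcnh5. The list of members with unique middle bases added those nearest to Mettl6 (3.67 and 2.08, family 4) and Txndc9 (4.07 and 1.67, no family). Neither of these had a CTCF match.

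Of 30 adrenal cortex genes, 1 had a repeat DHS assigned within 100 kb, and of 20 chromaffin genes 0 had one. Over all 20698 autosomal protein-coding genes the share was 1.62% (336 genes), so these counts are near the background. The DHS of the cortex list lay 5181 bp from Agtr1a, which encodes an angiotensin II receptor that drives aldosterone secretion (chr13:30331181-30331340). It had heights of 1.80 in replicate 1 and 1.35 in replicate 2, was in family 1 and resembled B1, and held no CTCF match. The 483 members were nearest to 451 different genes.

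By position, 54.2% of repeat DHSs had an intergenic centre (262 of 483), 42.7% an intronic and 3.11% an exonic one. Among unmasked DHSs the shares were 39.1, 49.1 and 11.8%. A protein-coding start lay within 100 kb of 71.8% of repeat DHSs and 82.2% of unmasked DHSs. The families parted here too. The median distance to the nearest protein-coding start was 11693 bp in family 1, 143296 bp in family 2 and 81762 bp in family 3, and 25822 bp in unmasked DHSs. Repeat DHSs were narrower, with a median width of 142 bp against 160 bp in unmasked DHSs, and had fewer CpG dinucleotides, at 1.25 against 1.88 per 100 bp. Family 2, with 2.76 CpG per 100 bp, and family 5, with 2.36, lay above unmasked DHSs in this measure. The median GC content was 59.5% in family 2 and 54.1% in unmasked DHSs.

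Of 17 consensus words searched on both strands in the central 150 bp, some others were also more frequent in repeat DHSs. The masked windows without a DHS, given beside them, were not matched to the members by repeat family. The B box GTTCNANNC, part of the internal promoter of RNA polymerase III genes, was in 22.2% of repeat DHSs (107 of 483), 4.42% of unmasked DHSs, 5.12% of all shared distal DHSs and 8.40% of the masked windows without a DHS. TGTGGTT, the word of RUNX factors, was in 11.6% of repeat DHSs, 3.08% of unmasked DHSs and 4.96% of those windows, and in 25.3% of family 1. AANATGGC, the word of YY1, was in 8.70% of repeat DHSs, 1.97% of unmasked DHSs and 3.44% of the windows, and in 29.1% of family 2. GGAATG, the word of TEAD factors, was in 6.21% of repeat DHSs and 9.12% of unmasked DHSs overall but in 45.8% of family 3 (11 of 24).

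The words of Nr5a1 and AP-1 were rarer in repeat than in unmasked DHSs, but not rarer than in the masked windows without a DHS. CAAGGTCA, bound by Nr5a1, the steroidogenic factor SF-1, was in 1.24% of repeat DHSs (6 of 483), 3.65% of unmasked DHSs, 3.62% of all shared distal DHSs and 0.763% of those windows. The half-site AGGTCA, which is contained in it, was in 8.07% of repeat DHSs, 15.5% of unmasked DHSs, 15.1% of all shared distal DHSs and 5.34% of the windows. TGANTCA, the word of AP-1, was in 10.97% of repeat DHSs, 16.1% of unmasked DHSs and 1.91% of the windows. GATA factors' AGATAA was in 5.18% of repeat DHSs and 5.01% of unmasked DHSs, and ACANNNTGT, the word of the glucocorticoid receptor, in 4.76% of repeat DHSs and 4.202% of unmasked DHSs. A match to letters is a description and does not show that the factor was bound.

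**Figure D5:**
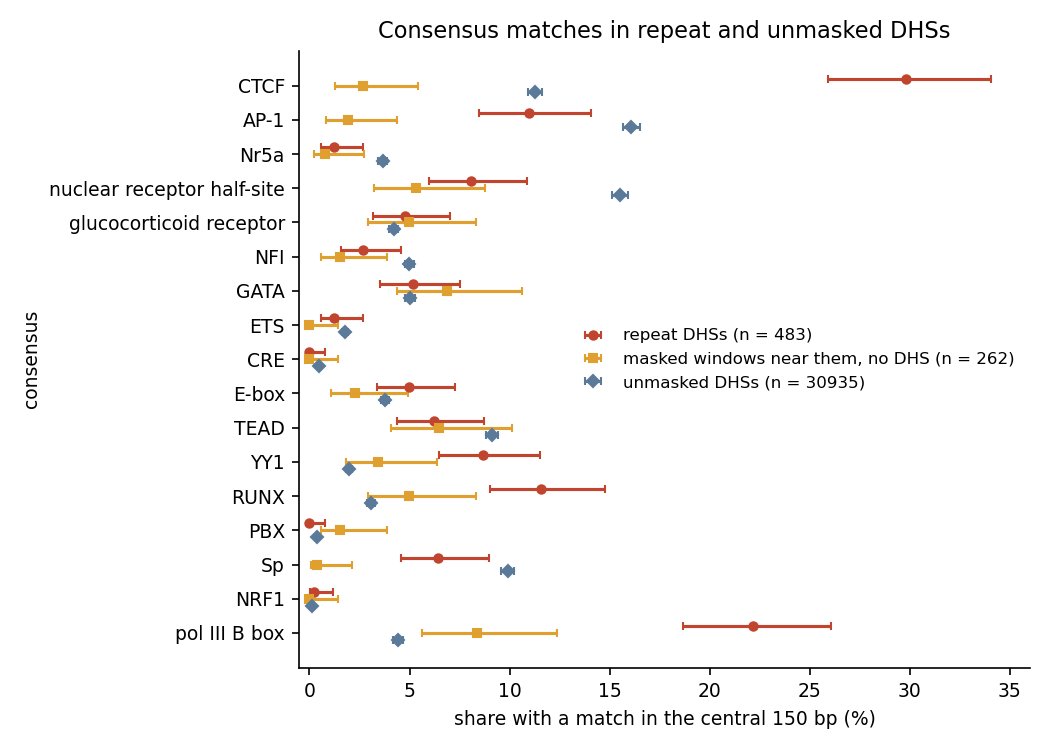
Share of windows with a match to each of 17 consensus words in the central 150 bp (%, x axis; words down the page), for repeat DHSs (red circles), masked windows 2 kb from them without a DHS (yellow squares) and unmasked DHSs (blue diamonds), with 95% Wilson intervals. CTCF, at 29.8%, and the B box of RNA polymerase III, at 22.2%, stand farthest from the unmasked DHSs.

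As a check of the tissue label, all 6 cortex markers (Star, Nr5a1, Mc2r, Mrap, Cyp11b1 and Scarb1) and the chromaffin markers Th, Dbh, Chga, Chgb and Phox2a had a DHS within 1 kb of a start in both libraries. Kidney and liver markers, 2 each, had 0 in both libraries. The lymphocyte marker Cd3e had none in replicate 1, but a height of 0.577 in replicate 2; the part of lymphocytes in the repeat DHSs that were higher in replicate 2 was not tested. The longer lists held 130945 DHSs in replicate 1 and 157786 in replicate 2. If heights are read as CPM values, so that a step is 1 count, the libraries held 120 M counts (replicate 1) and 113 M counts (replicate 2); this reading rests on the values alone.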

How the data were processed

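Peak height is a signal value in the deposited lists. The heights of a library were all whole multiples of a common step (to within 0.05 step), as counts scaled to a library total would be, but the scaling is not stated. Peaks, footprints and stretches with a false discovery rate (q-value) of at most 0.05 were deposited per library in mm10, from that library's own filtered alignments per the file headers; replicates were not pooled. The sources used here do not give the aligner, callers, their versions, the thresholds of the peak lists or the masking program. Members and lists were chosen with earlier results of these data known.

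Intervals, motifs and copies of middle words (chromosomes 1 to 19, X and Y, both strands) were computed with Python 3.11.15, numpy 2.4.6, pandas 2.3.3 and scipy 1.17.1. The height in replicate 2 is that of the highest overlapping DHS. Families came from blastn 2.17.0 (E-value 1e-05, at least 50 aligned bp, single linkage), and similarity to annotated elements used an E-value of 0.001. Short tandem repeats needed 12 matching bases in a row. Named genes are those nearest to the 10 highest members, to the 10 highest with unique middle 36 bases, and listed adrenal genes within 100 kb. For 2 of the marker genes of the tissue check the result is not reported here. Procedures were tested on simulated data. No test across samples was possible, so no p-values were computed.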

Additional observations from a re-analysis of the deposited data

How the results depend on the processing

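Repeat DHSs stayed below unmasked DHSs in every alternative that set them side by side, though none compared DHSs of like mean height. The height ratio was below 1 in 11 of 11 alternatives. The shares in the shorter list and with a footprint were below those of unmasked DHSs in 18 of 18. Of 46 alternative values 20 stayed near the value given in the report and 26 moved. Near meant within its spread or interval, or within a fixed margin for counts and the log2 ratio between libraries. A turn in direction could be scored only for the height ratio and that log2 ratio, and 0 turned. The height ratio below is the mean of both libraries, 0.483 as reported. With at least 50% lower-case bases there were 1769 DHSs, with a height ratio of 0.639, 28.7% in both shorter lists and 55.0% with a footprint in both. With all bases lower-case there were 143, with 0.373, 15.4% and 35.7%. An overlap of at least 50% of both DHSs gave 27.8% in the shorter lists, 56.4% with a footprint and 15.1% of replicate 1 DHSs found in replicate 2. With 1 library left out, the number ranged from 2334 to 7264, the height ratio from 0.347 to 0.532, the shorter-list share from 9.60% to 17.99% and the footprint share from 41.1% to 42.8%, each for the remaining library alone. Members taken from the shorter list of both libraries numbered 119, with a height ratio of 0.646. Without family 1, an alternative chosen after seeing the data, 297 members remained, with a height ratio of 0.327, 15.2% in the shorter lists, 27.9% with a footprint, 4.04% with a CTCF match and a median log2 ratio between libraries of -0.45. Division of each height by its library's median made that ratio -0.47 for all members. Without DHSs that were at least 50% short tandem repeat, 470 members remained, with 22.3% in the shorter lists. With the middle 76 bases in place of 36, 98.1% were unique. The cause of these shifts was not tested. Weak members rest on few steps of signal (from 8 in replicate 1 and 10 in replicate 2), reads placed in copies cannot be told apart from reads of the site itself, and 2 libraries give no spread within an animal. No paired analysis was possible because the data hold a single group and no test.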
